A study of Mus musculus with 4 samples.

Results

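The proteasome and the genes that feed its peptides to MHC class I were examined in cultured mouse Kupffer cells (liver macrophages) given maresin 1 or its vehicle. The genes were chosen by name: every symbol that starts with Psm, a letter from a to g and a digit, together with B2m, H2-D1, H2-K1, Tap1, Tap2, Tapbp, Erap1, Nlrc5, Psme1 and Psme2. Of the 59 protein-coding genes that this rule names in RefSeq, 58 had a probe on the array (89 of 56605 probes) and 57 passed the filter on dim probes, out of 24067 genes tested in all. Psme2 had no probe under its own accession, and Psmb11, the catalytic subunit of the thymus, was well above background on vehicle replicate 1 alone and so did not pass. The name rule also takes in Psmc3ip, a gene of meiotic recombination, and Psme3ip1, which encodes a binding partner of a proteasome activator. Neither encodes a proteasome subunit, so 55 of the genes tested belong to the machinery itself.

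The study used male C57BL/6 mice aged 8 weeks, whose livers were perfused with collagenase. The Kupffer cell layer of a Percoll gradient was plated in RPMI medium with 10% serum, and then kept for 24 h in RPMI with 0.1% serum holding either 200 nM maresin 1 (MaR1, 2 arrays) or ethanol (vehicle, 2 arrays). Maresin 1 is a signalling lipid derived from docosahexaenoic acid. RNA labelled with Cy3 was hybridised to 4 one-colour Agilent arrays on a single slide, the vehicle samples at the first positions and the maresin 1 samples at the next, so that array position and treatment cannot be told apart. Nothing in the labels ties replicates to different animals or dishes, so each p-value reflects the spread between arrays alone, possibly a technical one.

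The proteasome cuts ubiquitin-tagged proteins into peptides. Its core particle is a barrel of alpha rings and beta rings, in which Psmb5, Psmb6 and Psmb7 encode the cutting subunits of the constitutive form. Interferon gamma is known to replace them with Psmb8, Psmb9 and Psmb10, giving the immunoproteasome, whose peptides are well suited to MHC class I and which immune cells carry even at rest. Peptides are pumped into the endoplasmic reticulum by the transporter of Tap1 and Tap2, bridged to empty class I molecules by tapasin (Tapbp), trimmed by Erap1 and displayed by H2-K1 or H2-D1 paired with beta-2 microglobulin (B2m). NLRC5 is the transcriptional activator of class I genes.

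Several of these genes lie together in the MHC on chromosome 17, where Tap1 and Psmb9 are transcribed away from each other from a shared stretch. That stretch is shown because both genes had similar differences in these data, though neither passed the test. It stands beside the upstream sequences of an exchanged pair, Psmb8 and Psmb5, and of the 3 machinery genes that passed, Tapbp, Psme3 and Psmd8. The sequences are those of RefSeq on GRCm38.p6, written 5′ to 3′ on the gene's strand and ending at the base before the start site. Capitals mark matches to the 3 motifs searched. The bases between the starts of Psmb9 and Tap1, read on the strand of Tap1, lie at chr17:34187331-34187555 (plus strand).
Tap1 and Psmb9: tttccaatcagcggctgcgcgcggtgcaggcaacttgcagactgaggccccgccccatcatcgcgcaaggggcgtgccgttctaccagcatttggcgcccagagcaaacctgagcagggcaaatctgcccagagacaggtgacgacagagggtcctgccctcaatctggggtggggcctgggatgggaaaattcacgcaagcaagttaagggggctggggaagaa
The 250 bases before the start of Psmb8 lie at chr17:34197945-34198194 (plus strand) and hold 1 gamma-activated site match.
Psmb8: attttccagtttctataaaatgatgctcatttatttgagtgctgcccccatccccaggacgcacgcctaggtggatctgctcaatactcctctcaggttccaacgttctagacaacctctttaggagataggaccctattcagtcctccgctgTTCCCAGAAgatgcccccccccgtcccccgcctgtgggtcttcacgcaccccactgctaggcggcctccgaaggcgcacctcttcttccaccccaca
Those before Psmb5 lie at chr14:54617996-54618245 (minus strand) and hold 1 antioxidant response element match.
Psmb5: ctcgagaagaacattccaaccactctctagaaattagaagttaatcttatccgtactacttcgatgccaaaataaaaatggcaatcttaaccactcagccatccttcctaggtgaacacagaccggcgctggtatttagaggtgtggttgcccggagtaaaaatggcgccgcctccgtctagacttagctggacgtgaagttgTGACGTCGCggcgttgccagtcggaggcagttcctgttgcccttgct
No match was found in the sequences of the other genes shown. Those before Tapbp lie at chr17:33919228-33919477 (plus strand).
Tapbp: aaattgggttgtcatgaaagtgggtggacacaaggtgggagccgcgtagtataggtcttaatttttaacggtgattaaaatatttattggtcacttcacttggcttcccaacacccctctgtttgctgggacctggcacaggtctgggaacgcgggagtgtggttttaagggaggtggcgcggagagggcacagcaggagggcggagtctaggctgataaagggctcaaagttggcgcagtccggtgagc
Those before Psme3 lie at chr11:101315963-101316212 (plus strand).
Psme3: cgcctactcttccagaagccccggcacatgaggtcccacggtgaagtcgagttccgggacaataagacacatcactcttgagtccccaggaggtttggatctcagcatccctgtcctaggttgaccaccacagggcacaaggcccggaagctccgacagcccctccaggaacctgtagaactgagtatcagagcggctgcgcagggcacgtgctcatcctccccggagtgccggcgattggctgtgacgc
Those before Psmd8 lie at chr7:29180674-29180923 (minus strand).
Psmd8: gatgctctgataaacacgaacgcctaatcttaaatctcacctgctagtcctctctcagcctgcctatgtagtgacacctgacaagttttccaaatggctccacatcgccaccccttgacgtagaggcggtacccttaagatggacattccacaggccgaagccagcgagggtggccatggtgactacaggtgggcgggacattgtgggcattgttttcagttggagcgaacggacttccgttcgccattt

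The motifs were searched by their letters on both strands in the RefSeq windows of 250 bases before to 50 after each start, of which 49 belonged to 46 of the machinery genes. The core of the interferon-stimulated response element, GAAA followed by any 2 bases and GAAA, was found in 7 of the 49 windows (14.3%), against 3.44% of all 32851 windows. The genes with this match were B2m, Erap1, Psmb3, Psmd4, Psmd9, Psme1 and Psmg4. The gamma-activated site TTCNNNGAA was found in 3 of the 49 windows (6.12%, against 8.30% of all windows), those of Psmb8, Psmd2 and Psmg1. The antioxidant response element core TGACNNNGC, the kind of site through which NRF1 is known to drive proteasome genes, was found in 8 (16.3%, against 12.4%). These were windows of Psmb5, Psmb6, Psmc6, Psmd9, Psmd12, Psme4 and H2-K1, the last with 2 overlapping windows. A match is only a description of the letters and was not tested.

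Most members did not pass the adjusted test between maresin 1 and vehicle arrays, as was the case for most of all genes tested. With 2 arrays per group, a gene that did not pass was not shown to be unchanged. By limma's moderated test with Benjamini-Hochberg adjustment over all genes, 4 of the 57 members tested were higher (7.02%) and 0 lower, against 11.2% and 12.7% of all genes tested. Psme3, Psmd8 and Tapbp rose, as did Psmc3ip, which is no proteasome gene. At an unadjusted p under 0.05, 8 members were higher and 0 lower, as were 18.6% and 22.1% of all genes. Differences are log2 values of maresin 1 minus vehicle with the SE of the fit (n = 2 arrays per group, except 1 vehicle array for Psmb10), and levels are log2 of the processed signal relative to the array's 75th percentile, so that a level of 0 equals that percentile. The median difference of the members was 0.08, beside -0.02 over all genes tested. Positive differences were found in 49 of the 57 members and in 47.3% of all genes tested. In 33 members (57.9%) both maresin 1 arrays lay above both vehicle arrays, as they did in 32.7% of all genes tested, and in 1 (Psmb5) both lay below, as in 36.8% of all genes. This small common upward difference depended on how the arrays were scaled. With quantile normalization, 3 members were called higher (10.4% of all genes) and 0 lower (12.2%). Under that scaling 26 of 57 differences were positive, and the median of the members was -0.01, beside -0.03 over all genes. The arrays were then separated upward in 16 members (28.1%, against 30.2% of all genes) and downward in 23 (40.4%, against 38.5%).

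The number of members called depended on the setting, as did the share of all genes. In the authors' deposited values 3 members were higher and 0 lower (all genes, 11.1% and 13.3%), and with normexp and quantile normalization 3 and 2 (13.6% and 17.4%). With the replicate block, 3 were higher and 0 lower (7.34% and 8%), with no filter on dim probes 1 and 0 (2.38% and 2.13%), and with a variance trend 20 and 1 (18.8% and 19.4%). Without vehicle replicate 1 or without maresin 1 replicate 1, Psme3 alone was higher (all genes, 4.72% and 5.55%) and 0 were lower (3.86% and 6.19%). Without vehicle replicate 2 or without maresin 1 replicate 2, 0 members were higher (5.22% and 4.2%) and 0 lower (3.81% and 3.97%) by limma, and at an unadjusted p under 0.05 4 were higher in each (all genes, 14.2% and 14.4%) and 0 lower (16.6% and 18.2%).

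**Figure D1:**
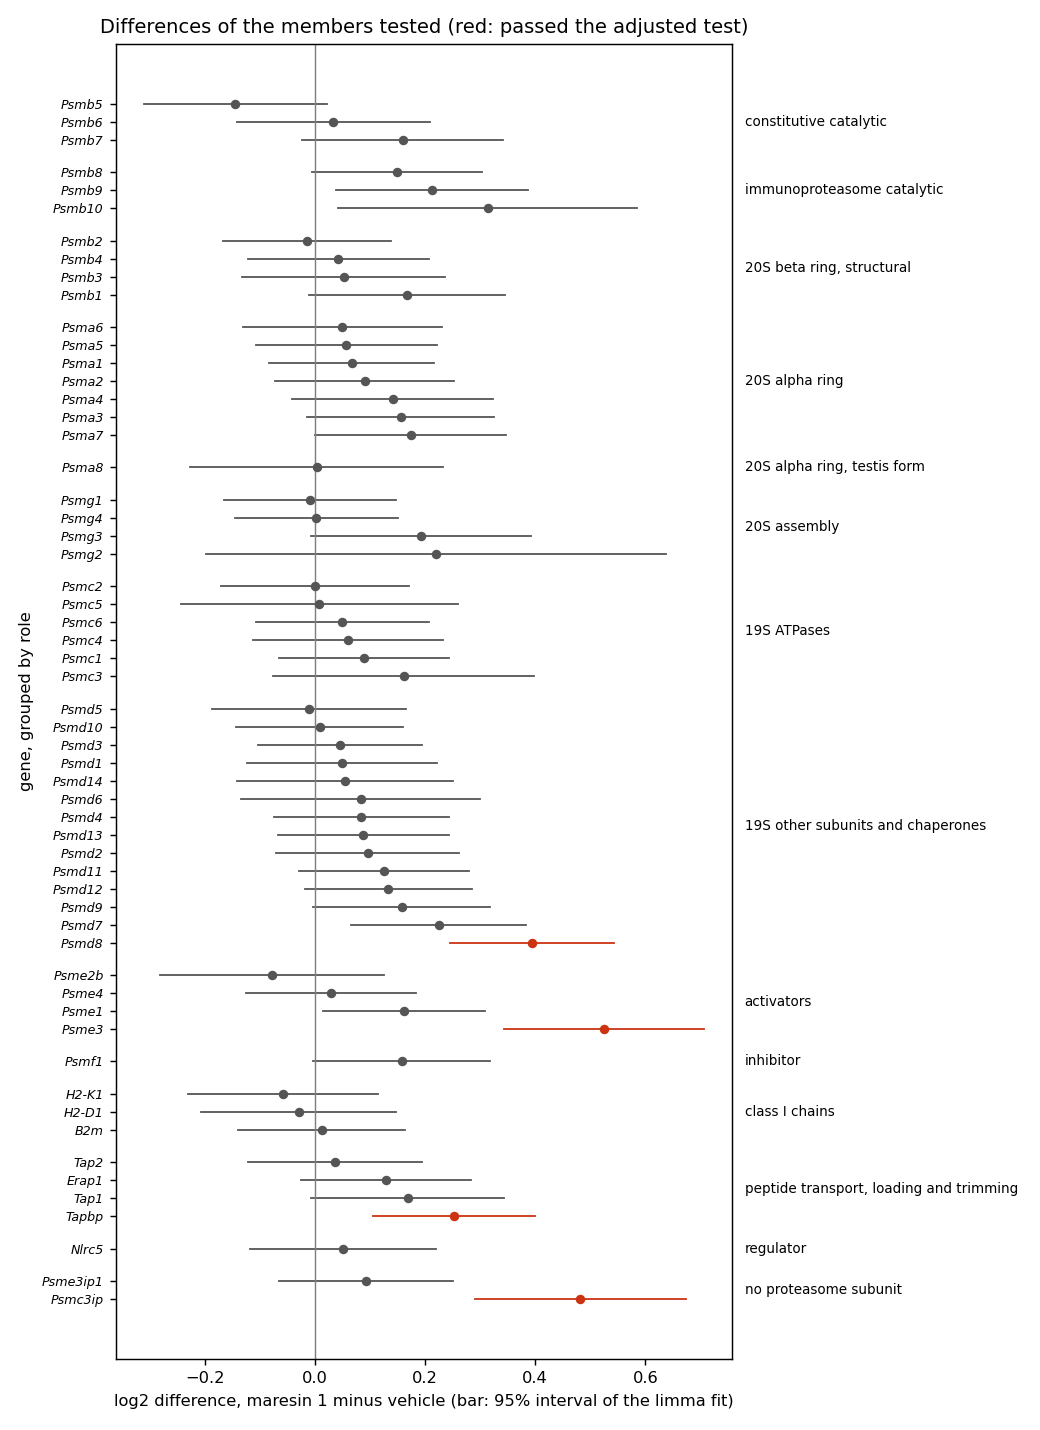
Log2 difference of each member tested (points, maresin 1 minus vehicle, n = 2 arrays per group, except 1 vehicle array for Psmb10) with the 95% interval of the limma fit (bars), grouped by role. The 4 genes in red passed the adjusted test, and most other points lie slightly to the right of 0 under this scaling.

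**Figure D2:**
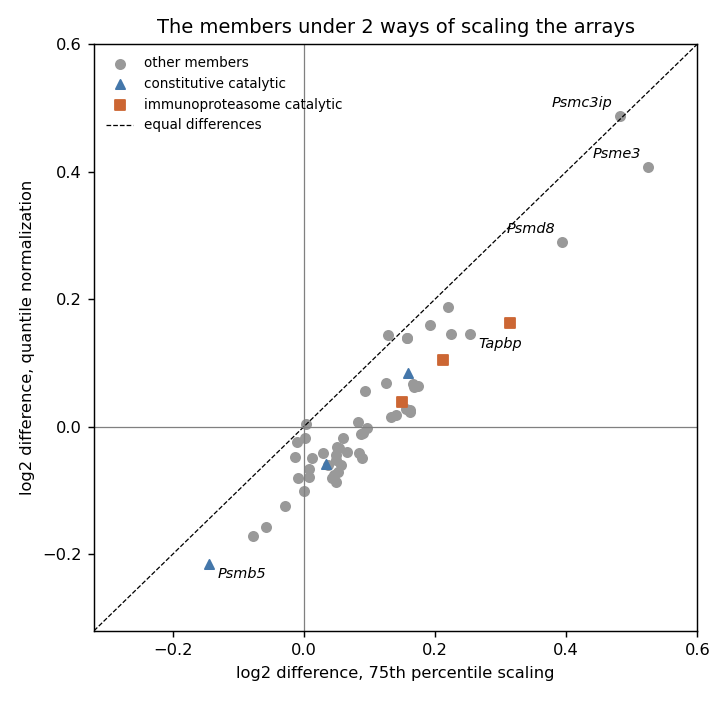
Log2 difference (maresin 1 minus vehicle) of each of the 57 members with arrays scaled to their 75th percentile (horizontal axis) and with quantile normalization (vertical axis); each point is a gene and the dashed line marks equal values. Most members lie below the line, and 49 are above 0 on the horizontal axis but 26 on the vertical axis.

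Among the constitutive cutting subunits the 3 genes went different ways and none passed the test. Psmb5, which encodes the chymotrypsin-like subunit, had levels of 4.16 and 4.08 with vehicle and 3.95 and 3.996 with maresin 1. The groups did not overlap and the maresin 1 arrays were lower, with a difference of -0.14 ± 0.06 (limma adjusted p = 0.159). Psmb5 passed with normexp background correction and quantile normalization (-0.24, adjusted p = 0.0181) and with a variance trend (-0.14, adjusted p = 0.0328). Psmb6, the caspase-like subunit, had overlapping levels of 6.64 and 6.55 with vehicle and 6.60 and 6.66 with maresin 1 (0.03 ± 0.06, limma adjusted p = 0.728). At its other probe both maresin 1 arrays were higher (0.10 ± 0.06, limma adjusted p = 0.289). Psmb7, the trypsin-like subunit, was at 3.66 and 3.58 with vehicle and 3.83 and 3.73 with maresin 1, without overlap (0.16 ± 0.07, limma adjusted p = 0.160). With a variance trend Psmb7 passed as well (limma adjusted p = 0.0268).

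All 3 inducible cutting subunits had higher values on both maresin 1 arrays than on any vehicle array measured. None of the 3 differences passed the adjusted test. This separation was also seen in 32.7% of all genes tested, 33 of the 57 members and 6 of the 7 alpha ring genes. Psmb8, the inducible counterpart of Psmb5, had levels of 5.47 and 5.42 with vehicle and 5.61 and 5.59 with maresin 1 (0.15 ± 0.06, limma adjusted p = 0.131). Psmb9, the counterpart of Psmb6, had levels of 5.68 and 5.69 against 5.84 and 5.94 (0.21 ± 0.06, limma adjusted p = 0.0826). With a variance trend both Psmb8 and Psmb9 passed (limma adjusted p = 0.0237 and 0.00421). Psmb10, the counterpart of Psmb7, was measured on 3 arrays, because its spot on vehicle replicate 1 carried an outlier mark and was dropped from the fit. Its level was 6.23 on the remaining vehicle array and 6.50 and 6.60 with maresin 1 (0.31 ± 0.09, limma adjusted p = 0.0960). With the marked spot kept, an alternative chosen after seeing the data, the value of Psmb10 was 0.55 (limma adjusted p = 0.0908). With quantile normalization the differences of Psmb8, Psmb9 and Psmb10 were 0.04, 0.10 and 0.16, all positive and none past the threshold (limma adjusted p = 0.638, 0.266 and 0.253).

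Set against each other within an array, the inducible subunits stood higher relative to the constitutive subunits with maresin 1. The log2 ratio of Psmb8 to Psmb5, with its vehicle mean set to 0, was -0.01 and 0.01 with vehicle and 0.32 and 0.26 with maresin 1. The ratio of Psmb9 to Psmb6 was -0.05 and 0.05 against 0.16 and 0.20. The ratio of Psmb10 to Psmb7 was 0.02 and 0.21 on the maresin 1 arrays relative to the single vehicle array that measured both. The mean difference of the 3 inducible genes minus that of the 3 constitutive genes was 0.21, with vehicle replicate 1 entering without Psmb10. The score of single arrays varied within groups with an SD of 0.04. Psmb10 is set to 0 on its only vehicle array and so adds no spread there, and this SD may be too small. The mean difference between the 2 sets was 0.16 with quantile normalization. A shift common to all genes of an array cancels in this contrast, so its unchanged sign is no separate support. No p-value is given for a score over these genes, and an exact two-sided permutation test of 2 arrays against 2 cannot give a p below 0.333. A ratio within an array shows unequal change of the subunits and not which of them changed.

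**Figure D3:**
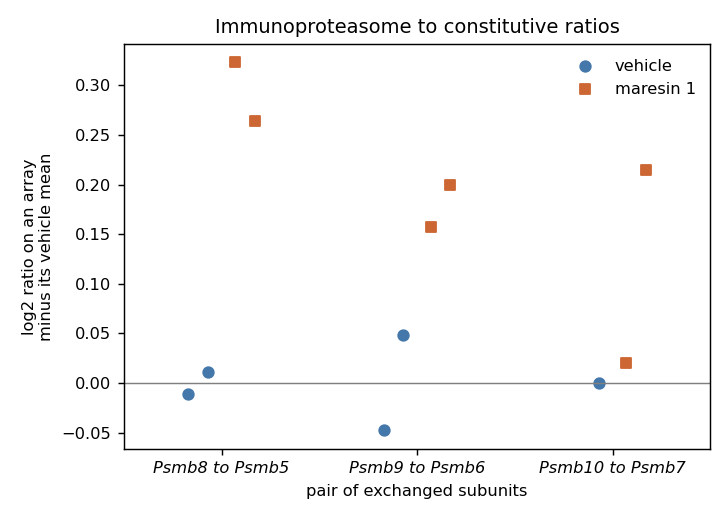
Log2 ratio of each inducible catalytic subunit to its constitutive counterpart on each array, minus the mean ratio of the vehicle arrays (circles, vehicle; squares, maresin 1). The maresin 1 points lie above the vehicle points for each pair, by 0.02 at the nearest, for Psmb10 to Psmb7, which has 1 vehicle point.

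The rest of the core particle did not pass the test. The alpha ring genes Psma1 to Psma7 had differences from 0.05 to 0.17 with a median of 0.09. The largest was that of Psma7, at 5.72 and 5.69 with vehicle and 5.83 and 5.93 with maresin 1 (0.17 ± 0.06, limma adjusted p = 0.123). With quantile normalization the median of the 7 genes was -0.01. The structural beta ring genes Psmb1 to Psmb4 ranged from -0.01 to 0.17, led by Psmb1 (0.17 ± 0.07, limma adjusted p = 0.139). Psma8, the alpha subunit of the testis proteasome, was well above background on all 4 arrays, with overlapping levels of -0.08 and -0.17 against -0.20 and -0.03. It is closely related in sequence to Psma7, and whether its probe also bound Psma7 transcripts was not tested. The assembly chaperone genes Psmg1 to Psmg4 ranged from -0.01 to 0.22. The largest value, that of Psmg2, had a wide interval of -0.20 to 0.64 because its vehicle arrays differed, at 1.17 and 1.56 (limma adjusted p = 0.344).

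The regulatory particle recognises ubiquitin, unfolds proteins and opens the core. Of 20 genes of this particle and its chaperones, 1 was higher and 0 lower (all genes, 11.2% and 12.7%). Psmd8, a structural subunit of the particle's lid, had levels of 4.38 and 4.35 with vehicle and 4.77 and 4.75 with maresin 1. The replicates nearly coincided and the groups were well apart, a 1.31-fold rise (0.39 ± 0.05, limma adjusted p = 0.0159). The difference was 0.29 with quantile normalization and still passed (limma adjusted p = 0.0321), while it was 0.38 to 0.41 with any 1 array left out and missed the threshold each time (limma adjusted p up to 0.0814). Psmd7, another lid subunit named after its value was seen, was next at 0.22 ± 0.06 (limma adjusted p = 0.0604), with levels of 3.24 and 3.22 against 3.42 and 3.49. The other 12 Psmd genes ranged from -0.01 to 0.16, among them the deubiquitinase Psmd14 (0.05) and the ubiquitin receptor Psmd4 (0.08). The 6 ATPase genes Psmc1 to Psmc6 ranged from -0.00 to 0.16, the largest being Psmc3 (0.16 ± 0.09, limma adjusted p = 0.242). With quantile normalization 1 of the 6 ATPase values and 6 of the 14 Psmd values were positive, against 5 and 13 with percentile scaling.

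The activators that cap the core in place of the regulatory particle diverged. Psme3, which encodes the nuclear activator PA28 gamma, had levels of 5.27 and 5.17 with vehicle and 5.71 and 5.78 with maresin 1. This was the largest rise of the 57 members, 1.44-fold (0.52 ± 0.07, limma adjusted p = 0.0134). It was 0.41 with quantile normalization and passed there too (limma adjusted p = 0.0187), but the call was lost without vehicle replicate 2 (0.47) and without maresin 1 replicate 2 (0.49), with limma adjusted p up to 0.0645, and with no filter on dim probes (0.0536). Psme1, the interferon-inducible PA28 alpha, was at 6.00 and 5.99 against 6.16 and 6.15. The groups did not overlap, and the difference of 0.16 ± 0.05 did not pass (limma adjusted p = 0.102) and was 0.03 with quantile normalization. Probes named for Psme2b, a gene copy of the PA28 beta gene Psme2, gave -0.08 at the brighter probe, with overlapping groups, and 0.09 at the other, where both maresin 1 arrays were higher, and neither passed. Transcripts of the 2 copies may not be told apart by these probes, so the value is uncertain for either. Psme4 (0.03 ± 0.06), the PA200 activator, and Psmf1 (0.16 ± 0.06, limma adjusted p = 0.127), an inhibitor of the core, did not pass. Their other probes gave -0.16 and -0.02, and neither passed.

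**Figure D4:**
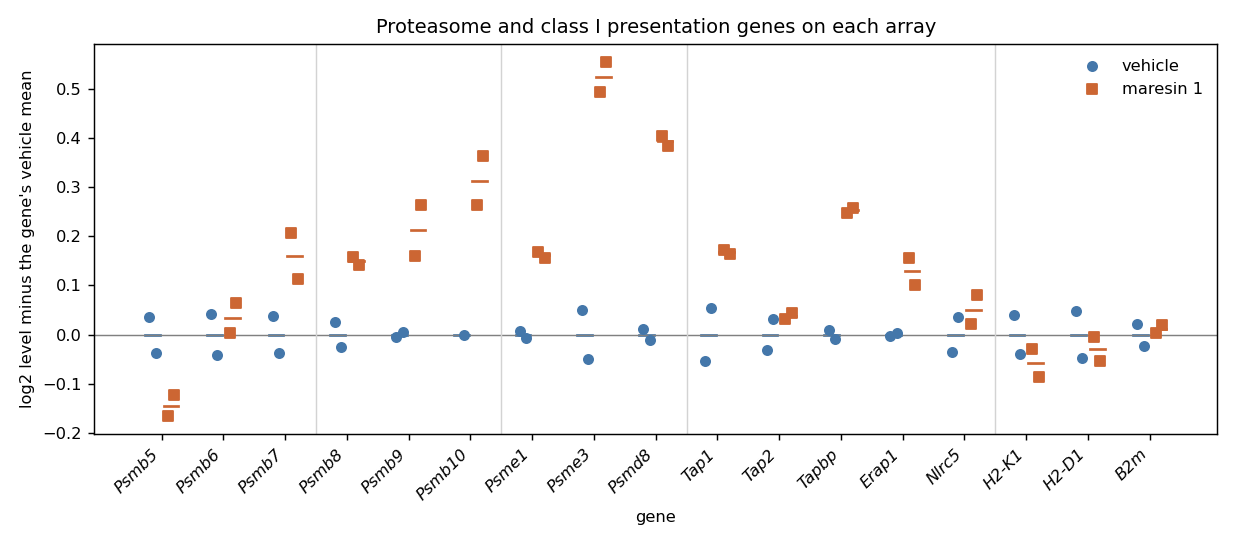
Log2 level of selected members on each array minus the gene's vehicle mean (circles, vehicle arrays; squares, maresin 1 arrays; short lines, group means; Psmb10 has 1 vehicle array). Psme3 and Psmd8 stand 0.52 and 0.39 above vehicle, whereas the squares of H2-K1, H2-D1 and B2m lie among or close to the circles.

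On the class I side, tapasin rose and the class I chains themselves showed no detectable change. Tapbp had levels of 6.40 and 6.38 with vehicle and 6.64 and 6.65 with maresin 1, a 1.19-fold rise (0.25 ± 0.05, limma adjusted p = 0.04). Its other probe also rose when each probe was tested on its own (0.38 ± 0.05, limma adjusted p = 0.0165). The call of the brighter probe was lost without any 1 of the 4 arrays (limma adjusted p up to 0.164), with the replicate block (0.09) and with quantile normalization, where the value was 0.15 (limma adjusted p = 0.132). Tap1 had levels of 4.89 and 5.00 against 5.12 and 5.11, without overlap (0.17 ± 0.06, limma adjusted p = 0.134), and 0.25 ± 0.06 at its other probe (limma adjusted p = 0.0565). These values are close to the 0.21 of Psmb9, with which Tap1 shares the stretch shown above. Other members lay in the same range, such as Psma7 (0.17) and Psmd7 (0.22). With quantile normalization Tap1 was at 0.06 and Psmb9 at 0.10, and neither passed. Tap2, the other half-transporter, was at 5.67 and 5.73 against 5.73 and 5.74 (0.04 ± 0.06, limma adjusted p = 0.666), and gave -0.12 at its other, dim probe. Erap1, the trimming peptidase, was at -0.98 and -0.97 against -0.82 and -0.87 (0.13 ± 0.06, limma adjusted p = 0.172).

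The class I heavy chain gene H2-K1 had levels of 8.04 and 7.96 with vehicle and 7.97 and 7.91 with maresin 1, with overlap and a difference of -0.06 ± 0.06 (95% interval -0.23 to 0.11). H2-D1 was at 8.16 and 8.06 against 8.11 and 8.06 (-0.03, interval -0.21 to 0.15). B2m, the shared light chain, was at 7.14 and 7.09 against 7.12 and 7.14 (0.01, interval -0.14 to 0.16). Limma adjusted p was 0.535, 0.764 and 0.892 for the 3 genes, and their intervals leave room for changes of about that width in either direction. With quantile normalization their values were -0.16, -0.12 and -0.05. The class I regulator Nlrc5 was at 3.798 and 3.867 against 3.853 and 3.913, with overlap (0.05 ± 0.06, limma adjusted p = 0.578), and gave -0.11 at its other, dim probe.

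Psmc3ip, taken in by its name alone, had levels of -0.61 and -0.73 with vehicle and -0.22 and -0.15 with maresin 1, a 1.40-fold rise (0.48 ± 0.07, limma adjusted p = 0.0178). Its other probe rose by 0.62 ± 0.06 when tested on its own (limma adjusted p = 0.00744). The call was lost without any 1 of the 4 arrays (limma adjusted p up to 0.0772) and with no filter on dim probes (0.0594), while the value with quantile normalization was 0.49. Psme3ip1 did not pass (0.09 ± 0.06, limma adjusted p = 0.298).

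Of a list of 42 other genes of the pathway, 37 were tested, of which 8 rose, 2 fell and 27 did not pass, with a median of 0.08. Of all genes tested, 11.2% were higher and 12.7% lower. With quantile normalization 2 of the list were higher and 3 lower (all genes, 10.4% and 12.2%). The interferon regulatory factors Irf8 (0.58 ± 0.07), Irf1 (0.40 ± 0.08) and Irf2 (0.27 ± 0.06) rose. IRF1 is known to activate the stretch between Tap1 and Psmb9, and whether it did so here was not tested. Calr (0.26 ± 0.05), which encodes the peptide-loading chaperone calreticulin, rose, while its partners Canx (0.13) and Pdia3 (0.21) did not pass. Of 12 non-classical class I or class I-like genes tested, 4 rose, 1 fell and 7 did not pass (all genes, 11.2% higher and 12.7% lower). H2-Q10 (0.26 ± 0.05), H2-T22 (0.24 ± 0.06), H2-T10 (0.30 ± 0.06) and the dim H2-T3 (0.37 ± 0.07) rose, while H2-T23 (-0.01), H2-T24 (-0.01), H2-Q2 (0.07), H2-Q4 (0.08), H2-Q7 (0.12), H2-M3 (0.17) and Mr1 (-0.30, limma adjusted p = 0.0623) did not pass. Class I genes are close copies of each other, so these probes may share transcripts, and the kept probes of H2-Q10 ranged from -0.25 to 0.27. The largest change on this list was that of Cd1d1, a class I-like gene that presents lipids. It had levels of 1.30 and 1.38 with vehicle and -0.02 and -0.00 with maresin 1, a fall to well below both vehicle arrays (-1.35 ± 0.06, limma adjusted p = 0.00236), and its call held without any 1 of the 4 arrays. The other calls on this list were each lost without at least 1 array (limma adjusted p up to 0.187). Ide, a peptidase of the cytosol, fell too (-0.34 ± 0.07). The calls of Calr, H2-Q10, H2-T10, H2-T22, Irf1 and Irf2 were lost with quantile normalization (limma adjusted p from 0.0578 to 0.181). Nfe2l1, which encodes NRF1, the activator of proteasome genes, and which was singled out after its value was seen, was at 4.35 and 4.39 against 4.06 and 4.17 and did not pass (-0.26 ± 0.07, limma adjusted p = 0.06).

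Markers of other cells moved in the same arrays. For comparison with the counts below, 11.2% of all genes tested were higher and 12.7% lower. All 10 Kupffer cell markers listed were well above background on all 4 arrays, of which Csf1r rose (0.29 ± 0.07), Adgre1, a general macrophage marker, fell (-0.67 ± 0.06) and 8 did not pass, among them Clec4f (0.04), Marco (-0.19) and Cd5l (-0.19). Their summed signal, in multiples of the array's 75th percentile, was 1154 to 1198 with vehicle and 1110.5 to 1129.6 with maresin 1. Of 7 dendritic cell markers tested, 6 rose, while Flt3 had a negative difference that did not pass (-0.28 ± 0.07). The summed signal of the 7 was 20.3 to 20.8 with vehicle and 50.1 to 51.7 with maresin 1. Xcr1, a marker of cross-presenting dendritic cells, was not well above background. Of 5 B cell markers tested, 3 rose, while Cd79a (0.44) and Pax5 (-0.42) did not pass (summed signal 1.93 to 2.17 against 3.43 to 3.63). Of 7 T or NK cell markers 3 fell, Cd3g (-0.33 ± 0.06), Lck (-0.51 ± 0.06) and Ncr1 (-0.34 ± 0.06), and 1 rose, Cd8a (1.27 ± 0.06). Ncr1 and Cd8a were dim, with mean vehicle levels of -3.71 and -3.69. Cd3e (-0.14), Cd3d (-0.22) and Klrb1c (-0.14) were lower on both maresin 1 arrays and did not pass. The summed signal of the 7 was 13.24 to 13.47 with vehicle and 10.80 to 10.84 with maresin 1. Of 6 endothelial markers 3 rose, Pecam1 (1.15 ± 0.06), Stab2 (0.47 ± 0.07) and Cdh5 (0.33 ± 0.08). The other 3, Kdr (-0.32, with 1 vehicle array), Lyve1 (-0.16) and Clec4g (-0.18), had negative differences and did not pass. Ccr2 of the neutrophil or monocyte list (-0.70 ± 0.06) and Ttr of the hepatocyte list (-0.41 ± 0.06) fell, and no stellate cell marker passed. Summed signals were 16.8 to 17.9 with maresin 1 against 19.5 to 21.1 with vehicle for 6 hepatocyte markers, 72.3 to 72.4 against 58.5 to 61.4 for 5 endothelial markers measured on all arrays, 112.6 to 122.4 against 119.3 to 122.2 for 6 neutrophil or monocyte markers and 0.194 to 0.195 against 0.225 to 0.278 for 4 stellate cell markers. Dendritic cells and B cells also carry the immunoproteasome and class I genes, and the part of these cells in the values above was not tested. In RNA from a mixed culture, fewer cells of a type and less RNA per cell cannot be told apart.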

How the data were processed

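Total RNA from 4 samples was measured on one-colour arrays. The deposited scanner files hold linear intensity values made with Agilent Feature Extraction 11.0.1.1, per the submitters' processing notes, of which the processed signal was used. The authors' deposited value table holds log2 values whose scale and filter are not stated. Each column correlated with the scanner values of its array (r = 1.00) and had a median of 9.07, and the table was used only as an alternative. Genome build and further steps of that table are not given in the sources used here.

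From the processed signal, log2 values were taken relative to the 75th percentile of the non-control spots of each array (847 to 988). Outlier-marked spots were dropped, spots of a probe averaged and probes retained (31128) where both arrays of either group were well above background. On single arrays, 54.4% to 55.6% of probes were well above background, and the number of arrays limits precision. Probes were named through RefSeq accessions of GRCm38.p6 (33006 of 56605 matched), and the brightest kept probe stood for a gene. Genes were tested with limma 3.58.1 under R 4.3.3, with Benjamini-Hochberg adjustment and a two-sided threshold of 0.05, a method tested on simulated data. The alternatives were quantile normalization, normexp (offset 50) on the median signal with quantile normalization, the authors' table, other filters, other uses of a gene's probes, a replicate block, a variance trend, each array left out in turn and, added later, outlier-marked spots kept. The genes and lists were chosen with earlier results of these data known. Named were the catalytic subunits, PA28 and class I genes in every case, called genes of each other role or the 1 with the largest difference, and called pathway genes. A comparison of protein sequences was planned and is not used here. Figures were drawn with matplotlib 3.10.9.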

Additional observations from a re-analysis of the deposited data

How the results depend on the processing

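The 4 members that were higher became 1 with no filter on dim probes (45616 genes tested, against 24067), 0 to 1 with an array left out and 20 with a variance trend. None is lower in the fit reported; 2 were with normexp and quantile normalization (Psmb5 and Psme2b) and 1 with a variance trend. With an array left out, 4 to 8 members were higher at an unadjusted p under 0.05 in limma (all genes, 13.6% to 15.7%) and 0 lower (16.6% to 19.7%). Genes higher and lower overall numbered 2700 and 3068, and 1087 and 972 with no filter, 1766 and 1926 with the replicate block, 4524 and 4672 with a variance trend, and 1011 to 1336 and 916 to 1489 with an array left out. The other pathway genes were 8 higher and 2 lower. They gave 2 higher and 3 lower with quantile normalization and in the authors' table, and 5 and 4 with normexp. They gave 1 and 1 with no filter or the replicate block, 13 and 5 with a variance trend, and fewer of each with an array left out.

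The inducible minus constitutive value (0.21) was 0.16 with quantile normalization, 0.16 with normexp, 0.26 in the authors' table, 0.16 with only probes well above background on all arrays, which leaves out Psmb10, 0.29 with marked spots kept, and 0.18 to 0.24 with an array left out; without vehicle replicate 2 it rests on Psmb8 and Psmb9. No named gene with a call reversed under any alternative; over 34 named genes and 14 alternatives, 373 values kept their side of the threshold, 89 calls were lost and 12 gained, 11 of these with a variance trend. The cause of these changes was not tested. The replicate numbers are only shared numbers: deviations of same-numbered arrays correlated with r = -0.03 across 24050 genes, which are not independent replicates, and the replicate block left 3 of the 4 member calls.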

Other observations

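Several members were measured by more than 1 kept probe (26 of the 57), and 9 of these had probes with differences of opposite sign. The 4 probes of the alpha ring gene Psma4 gave differences of 0.09 to 0.21, all positive with percentile scaling and none past the threshold.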
